A study of Homo sapiens with 8 samples.

Results

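KITLG, the gene of KIT ligand (stem cell factor), was examined together with the gene of its receptor KIT and the genes of the platelet-derived growth factor (PDGF) and vascular endothelial growth factor (VEGF) ligands. These are 10 genes of the 58870 in the table: KITLG, KIT, PDGFA, PDGFB, PDGFC, PDGFD, VEGFA, VEGFB, VEGFC and PGF. KITLG was chosen by its measured expression, because its transcript level was higher with the ADRA2A transgene in these same libraries, so its difference is described below and not tested. The other 9 genes were taken as the family of ligands and the KIT receptor, by name, but with earlier results of these data known. RNA was sequenced from 8 samples of CFPAC-1, a long-established line of human carcinoma cells of the pancreatic duct. Of these, 4 carried an empty vector and 4 carried an ADRA2A transgene, which encodes an alpha-2 adrenergic receptor coupled to Gi proteins. All 8 were grown for 72 hours in IMDM with serum, and no drug was added. The sources used here do not say which promoter drives the transgene, whether the cells were 1 clone or a pool, or whether the 4 samples of a group were separate cultures, so p-values measure the spread between these samples, which may be technical.

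KIT ligand is made as a membrane-anchored protein that can be cut to a soluble form, and it signals through KIT, a receptor tyrosine kinase of mast cells, melanocytes, germ cells and blood progenitors. PDGF ligands act on PDGFRA and PDGFRB, which are carried mainly by fibroblasts and pericytes. VEGF ligands act on FLT1, KDR and FLT4 of blood and lymphatic endothelium, with neuropilins as co-receptors. In pancreatic tumours such ligands are made in part by the carcinoma cells and read by the stroma.

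Values are estimated counts scaled to counts-per-million (CPM) with trimmed-mean-of-M-values (TMM) factors, and library totals ranged from 14427035 to 17528915 counts. The transgene was read first: ADRA2A had 0 counts in each empty-vector library and 112, 142, 154 and 172 counts in the ADRA2A libraries. All 10 ductal epithelial markers checked were detected, with a summed level of 12214 to 12791 CPM in empty-vector and 12153 to 13209 CPM in ADRA2A libraries. Keratin genes (KRT8, KRT18, KRT19) made up most of this sum. Of the 9 tested, 4 were called higher, among them MUC1 (log2 fold change 0.79), and 4 lower, among them KRT7 (-0.43) and CDH1 (-0.33). Over all genes tested 42.7% were called, 21.6% higher and 21.1% lower. CFTR, one of the 10, had only 4 to 20 counts in a library. Of 8 endothelial markers TEK, ERG and CLDN5 were at 0 in all 8 libraries, and the summed level was 5.68 to 7.67 CPM with the empty vector and 9.30 to 11.9 CPM with ADRA2A. The 2 endothelial markers tested were both called higher, PECAM1 (means of 0.773 and 2.44 CPM) and ESAM (5.45 and 7.82 CPM), and they carried that sum. VWF went the other way, with 3 to 4 counts in the empty-vector and 0 to 1 in the ADRA2A libraries, and was not tested. Of 8 mast cell markers CPA3, MS4A2, FCER1A and HPGDS were at 0 throughout (8.48 to 10.3 and 12.0 to 12.2 CPM, nearly all GATA2). The 8 fibroblast and pericyte markers summed to 84.4 to 88.1 and 27.6 to 31.1 CPM, nearly all from COL1A1, while COL3A1, DCN, PDGFRA and PDGFRB had at most 10 counts in a library. The 7 leukocyte markers summed to 121 to 134 and 199 to 212 CPM, most of it CD68 and LYZ, and CD3E was at 0. The part of these levels in the results below was not tested. In bulk RNA, fewer cells that make a transcript and less transcript per cell cannot be told apart.

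KITLG (ENSG00000049130.15) occupies 88492793 to 88580851 of chromosome 12 (GRCh38), minus strand. Its transcript stood at 21.7, 17.4, 19.7 and 20.1 CPM in empty-vector replicates 1 to 4 and at 76.1, 70.1, 68.3 and 74.0 CPM in ADRA2A replicates 1 to 4. Every ADRA2A library was above every empty-vector library, which is the pattern the gene was chosen for. The mean was 19.7 ± 1.80 CPM (SD, n = 4) with the empty vector and 72.1 ± 3.56 CPM (SD, n = 4) with ADRA2A, a ratio of 3.66. In the fit over all genes this is a log2 fold change of 1.87, the 81st highest (rank 81) of the 14785 genes tested. Counts per gene do not separate the transcripts of the membrane-retained and the readily cut form of the protein.

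KIT (ENSG00000157404.15; chromosome 4, 54657267 to 54740783, plus strand), the receptor of this ligand, had 0 counts in all 8 libraries, which together held 127337492 counts. A count of 0 allows up to 3 counts in a library, or 0.172 to 0.208 CPM depending on its size. KIT was therefore not tested, and no difference in it was detectable at this depth. These limits on a count of 0 cover counting error only.

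Of the 9 members other than KITLG, 8 passed the filter on low counts. In edgeR's quasi-likelihood test, with Benjamini-Hochberg adjustment over all 14785 genes and a threshold of 0.05, 7 of the 8 were called, 6 lower and 1 higher with ADRA2A. Over all genes tested 42.7% were called, 21.1% lower and 21.6% higher. The members were chosen with earlier results of these data known, so setting their count beside these shares is a description. The median log2 fold change of the 8 members was -0.29, against 0.00 for all genes tested. In 6 of the 8, every library of one group was above every library of the other, as for 39.2% of all genes tested. Of these 6, PDGFD was higher (19.7% of all genes were higher with no overlap) and 5 were lower (19.5%).

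**Figure D1:**
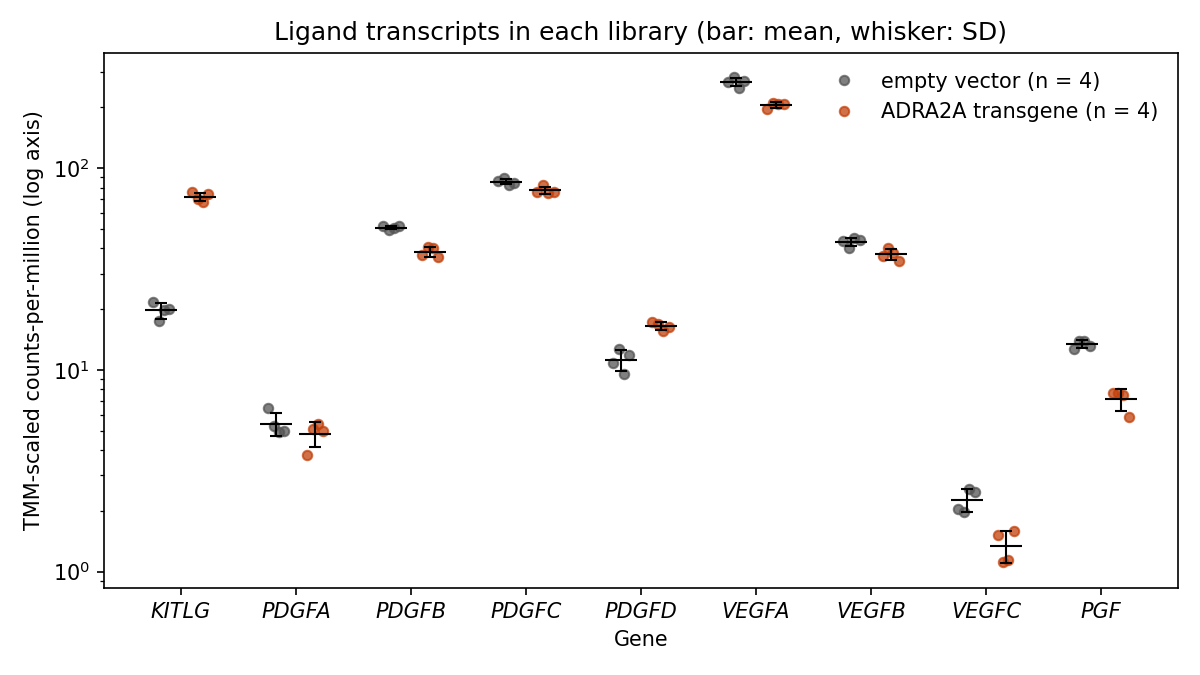
Each point is a library, in TMM-scaled counts-per-million on a log axis, for KITLG and the 8 PDGF and VEGF ligand genes; the long bar is the group mean and the whisker the SD (n = 4 per group). KITLG and PDGFD sit higher with ADRA2A, and PGF, VEGFA and PDGFB sit lower with no overlap between the groups, while the points of PDGFA and VEGFB overlap.

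The PDGF ligands did not move as one. PDGFB and PDGFC fell, PDGFD rose, and PDGFA was not called. PDGFA and PDGFB encode the classical chains, which are secreted as dimers ready to bind their receptors. PDGFC and PDGFD encode ligands that carry an amino-terminal CUB domain and have to be cut before they can bind.

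PDGFB (ENSG00000100311.16; chromosome 22, 39223359 to 39244982, minus strand) had 51.4, 49.5, 50.7 and 51.4 CPM in the empty-vector libraries and 36.9, 40.8, 40.0 and 36.1 CPM in the ADRA2A libraries. The lowest empty-vector library was above the highest ADRA2A library. PDGFB fell by 0.40 on the log2 scale (SE 0.05, adjusted p = 4.41e-06 by edgeR). PDGFC (ENSG00000145431.11; chromosome 4, 156760454 to 156971799, minus strand) had 86.3, 89.6, 82.9 and 84.6 CPM against 76.2, 82.0, 75.2 and 76.4 CPM. The groups were close, with the highest ADRA2A library just under the lowest empty-vector library. The fall of PDGFC was small, with a log2 fold change of -0.15 (SE 0.04, adjusted p = 0.0104 by edgeR).

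PDGFD (ENSG00000170962.13; chromosome 11, 103907189 to 104164379, minus strand), whose product acts mainly on PDGFRB, was the one member called higher. It had 10.8, 12.7, 9.53 and 11.9 CPM with the empty vector and 17.3, 16.9, 15.6 and 16.4 CPM with ADRA2A, and the groups did not overlap. On the log2 scale PDGFD rose by 0.56 (SE 0.09, adjusted p = 6.60e-05 by edgeR). PDGFA (ENSG00000197461.13; chromosome 7, 497258 to 520296, minus strand) had 6.44, 5.29, 4.94 and 4.97 CPM against 3.81, 5.08, 5.38 and 5.0 CPM. These libraries overlapped, and the log2 fold change of -0.16 had a 95% interval from -0.48 to 0.15 (adjusted p = 0.405 by edgeR), so a change of either sign within it was not detectable.

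All 4 VEGF family ligands were called lower. VEGFA is the main driver of blood vessel growth and a target of hypoxia-inducible factors, VEGFC acts on lymphatic endothelium, and VEGFB and PGF (placental growth factor) bind FLT1 but not KDR. VEGFA (ENSG00000112715.21; chromosome 6, 43770184 to 43786487, plus strand) had 268, 282, 251 and 270.4 CPM in the empty-vector libraries and 196, 209, 209 and 208 CPM in the ADRA2A libraries. No libraries overlapped, and ADRA2A replicate 1 was the lowest. VEGFA fell by 0.38 on the log2 scale (SE 0.04, adjusted p = 1.49e-07 by edgeR).

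PGF (ENSG00000119630.14; chromosome 14, 74941834 to 74955626, minus strand) had the largest fall of the members. It stood at 12.7, 13.9, 13.9 and 13.2 CPM with the empty vector and at 7.68, 7.65, 7.50 and 5.82 CPM with ADRA2A. The groups were well apart, with ADRA2A replicate 4 below its own group. The log2 fold change of PGF was -0.91 (SE 0.10, adjusted p = 7.26e-07 by edgeR), and it lay between -0.94 and -0.82 when each library was left out in turn.

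VEGFB (ENSG00000173511.9; chromosome 11, 64234584 to 64239264, plus strand) had 43.5, 40.0, 45.0 and 43.9 CPM against 36.8, 40.2, 37.9 and 34.5 CPM. ADRA2A replicate 2 reached the level of empty-vector replicate 2, so the groups touched. The log2 fold change was -0.21 (SE 0.06, adjusted p = 0.00642 by edgeR). VEGFC (ENSG00000150630.4; chromosome 4, 176683538 to 176792922, minus strand) was scarce, with 35, 29, 44 and 38 counts in the empty-vector libraries and 22, 17, 20 and 25 counts in the ADRA2A libraries. In CPM these are 2.05, 1.97, 2.56 and 2.49 against 1.52, 1.12, 1.15 and 1.58, with no overlap. Its log2 fold change of -0.76 (SE 0.24, adjusted p = 0.0167 by edgeR) was no longer called without empty-vector replicate 3 (adjusted p = 0.0514) or without ADRA2A replicate 3 (adjusted p = 0.0509), and lay between 0.0137 and 0.0514 in adjusted p over all alternatives.

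**Figure D2:**
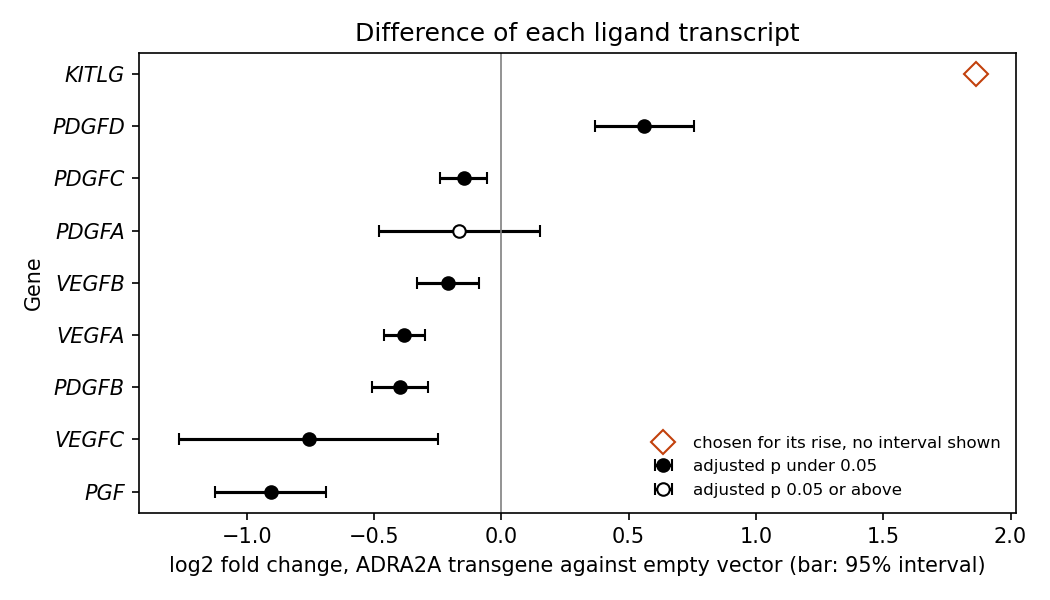
The x axis is the fitted log2 fold change, ADRA2A transgene against empty vector, with its 95% interval, and each row is a gene. PGF, VEGFC, PDGFB, VEGFA, VEGFB and PDGFC lie below 0, PDGFD lies above it, the interval of PDGFA (open circle) spans 0, and KITLG (open diamond, 1.87) has no interval because it was chosen for its rise.

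Levels of different genes were compared per length, as CPM per kilobase of merged exons. In the empty-vector cells VEGFB (21.9 ± 1.09, SD, n = 4) stood above VEGFA (18.6 ± 0.888), PDGFC (14.3 ± 0.476) and PDGFB (12.7 ± 0.228), and none of these neighbours overlapped. KITLG (3.18 ± 0.289), PDGFD (2.63 ± 0.323) and PGF (2.31 ± 0.104) followed, and each overlapped the next. PDGFA (1.18 ± 0.154) and VEGFC (0.866 ± 0.114) were the lowest of the 9. VEGFA had more counts than VEGFB (means of 268 and 43.1 CPM), but its merged exons span 14431 bases and those of VEGFB 1970. The merged exons of VEGFA pool 26 annotated transcripts and cover most of the span of the gene. They may thus be longer than the transcripts present, and a shorter length would raise VEGFA in this order. Whether VEGFB or VEGFA stood higher per transcript is therefore not settled by this measure.

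In the ADRA2A cells KITLG stood at 11.6 ± 0.574 CPM per kilobase (SD, n = 4), between PDGFC (12.9 ± 0.516) and PDGFB (9.64 ± 0.581), and it overlapped neither. By merged exons VEGFB (18.9 ± 1.20) remained the highest and VEGFA (14.3 ± 0.426) overlapped PDGFC, with the same limit on the length of VEGFA. PGF (1.23 ± 0.155) overlapped PDGFA (1.05 ± 0.151). KITLG went from the 5th to the 4th place of 9 by this measure. With the length of the longest transcript in place of the merged exons, 5 of the 9 genes changed place in at least 1 group, KITLG being 6 in the empty-vector order and 4 in the ADRA2A order. For VEGFA that length is 12167 bases, also most of the span of the gene, so it does not settle the place of VEGFA.

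**Figure D3:**
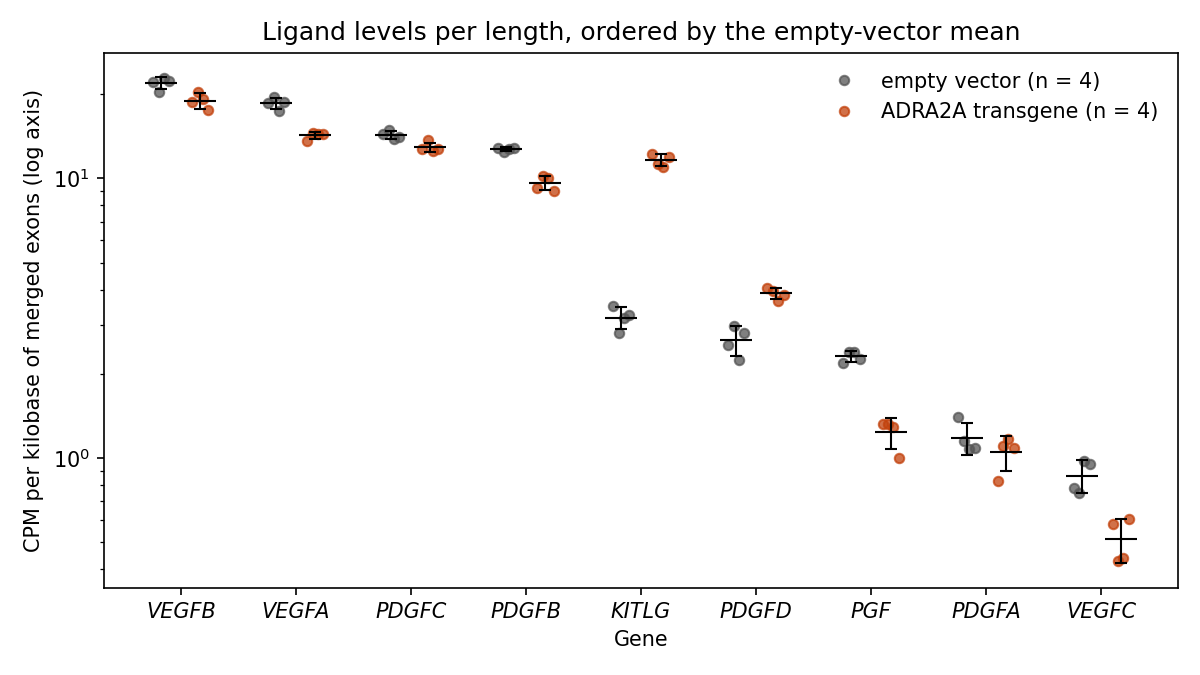
Points are libraries, in CPM per kilobase of merged exons on a log axis, with genes ordered by their empty-vector mean; the long bar is the group mean and the whisker the SD (n = 4 per group). KITLG stands at 3.18 in the empty-vector group and at 11.6 in the ADRA2A group, next to PDGFC and PDGFB.

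Summed over the 4 VEGF family ligands, the level per length was 43.0 to 44.2 in the empty-vector libraries and 33.5 to 36.6 in the ADRA2A libraries. VEGFB made up 50.2% ± 2.14 and 54.2% ± 1.47 of this sum (SD, n = 4 each), and VEGFA 42.6% ± 2.28 and 40.8% ± 1.58, and the libraries of the groups overlapped in both shares. The sum and these shares rest on the 14431 bases taken for VEGFA, and a shorter length would raise its share. Before division by length VEGFA had 268 and 206 CPM and VEGFB 43.1 and 37.3 CPM. Which of the 2 is the main VEGF transcript is therefore not settled here. Summed over the 4 PDGF ligands, the level was 29.8 to 31.5 and 26.7 to 29.0. The share of PDGFD in this sum was 8.53% ± 0.895 in the empty-vector libraries and 14.1% ± 0.793 in the ADRA2A libraries (SD, n = 4 each). The share of PDGFB was 41.2% ± 1.34 and 35.1% ± 1.20, with no overlap, while that of PDGFC was 46.4% ± 0.759 and 47.0% ± 0.844. These shares are descriptions and were not tested.

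Upstream sequence is shown for KITLG and PDGFD, which were higher, and for PGF and VEGFB, which were lower. Each line holds the 250 bases before the start site given by RefSeq (GRCh38.p14), 5′ to 3′ on the strand of the gene, and capitals mark GC boxes (GGGCGG, on either strand). The RefSeq table held 11 start sites of 7 members, and of the 2 starts of PGF the one farther upstream is shown. They are chr12:88580472-88580721 (minus strand) for KITLG, chr11:104164148-104164397 (minus strand) for PDGFD, chr14:74955765-74956014 (minus strand) for PGF and chr11:64234334-64234583 (plus strand) for VEGFB. By the gene positions given above, which come from another annotation, the KITLG window lies inside the gene and the PDGFD window mostly inside it.
KITLG: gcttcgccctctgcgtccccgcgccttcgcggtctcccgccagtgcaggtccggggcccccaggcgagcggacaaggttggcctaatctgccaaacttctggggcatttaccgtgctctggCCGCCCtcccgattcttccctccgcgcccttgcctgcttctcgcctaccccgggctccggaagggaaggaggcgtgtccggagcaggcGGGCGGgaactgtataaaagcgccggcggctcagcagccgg
PDGFD: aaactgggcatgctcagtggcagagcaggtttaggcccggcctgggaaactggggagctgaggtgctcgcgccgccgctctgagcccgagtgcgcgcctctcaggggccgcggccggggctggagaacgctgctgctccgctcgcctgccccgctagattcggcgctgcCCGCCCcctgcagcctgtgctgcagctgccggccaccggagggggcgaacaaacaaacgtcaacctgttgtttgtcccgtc
PGF: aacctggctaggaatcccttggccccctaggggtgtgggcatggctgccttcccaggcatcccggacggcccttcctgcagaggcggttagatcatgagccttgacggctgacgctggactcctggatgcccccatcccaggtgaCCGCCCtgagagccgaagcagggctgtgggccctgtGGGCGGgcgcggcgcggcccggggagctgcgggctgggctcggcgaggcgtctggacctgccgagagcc
VEGFB: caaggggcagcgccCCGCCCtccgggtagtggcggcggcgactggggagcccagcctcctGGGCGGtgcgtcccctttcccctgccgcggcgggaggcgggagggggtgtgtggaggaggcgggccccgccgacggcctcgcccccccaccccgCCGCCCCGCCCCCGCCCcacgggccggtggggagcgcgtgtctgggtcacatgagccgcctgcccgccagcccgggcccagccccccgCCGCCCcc
GC boxes were present in all 11 windows and in 42.6% of the 35116 windows of the same length in the table, and the 4 printed hold 2, 1, 2 and 6 of them, counting overlaps. GC content was 69.2%, 69.2%, 70.8% and 82.8% in that order, against a median of 58.0% over all windows. Neither the full cyclic AMP response element (TGACGTCA, in 1.65% of all windows) nor the AP-1 site (TGANTCA, 6.57%) was found in the 11 windows, both strands searched. The shorter form TGACG was not searched, and on 1 strand or the other it occurs in the printed lines of PDGFD and PGF. The ACGTG form of the core of the hypoxia response element (18.5%) was found in 1, that of KIT. The GCGTG form was not searched, and it occurs in the printed lines of KITLG and VEGFB. VEGFA, PDGFB and PDGFC had no entry.

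Among the receptors, the VEGF and PDGF receptors proper were nearly silent while the neuropilins were abundant. FLT1 had 1 count in 1 library and 0 in the others, FLT4 had 1 to 10 counts, PDGFRA 1 to 5 and PDGFRB 0 to 5, and none of these 4 passed the filter. KDR had 1.23, 1.22, 1.16 and 1.31 CPM with the empty vector and 0.692, 0.330, 0.401 and 0.506 CPM with ADRA2A, which is 5 to 21 counts in a library. KDR fell (log2 fold change -1.35, SE 0.33, adjusted p = 0.00234 by edgeR), the 1 call among the 3 receptor genes tested of 8 listed (33.3%, beside 42.7% of all genes). It is also the next tested gene after KIT on chromosome 4.

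NRP1, a co-receptor of VEGFA and of semaphorins, had 513 ± 8.07 CPM in the empty-vector and 522 ± 7.32 CPM in the ADRA2A libraries (SD, n = 4 each). The difference was 0.02 on the log2 scale, with a 95% interval from -0.04 to 0.09 (adjusted p = 0.539 by edgeR). NRP2, which also binds VEGFC, had 124 ± 4.45 and 121 ± 6.29 CPM, a log2 fold change of -0.04 with an interval from -0.14 to 0.05 (adjusted p = 0.440 by edgeR). Of 5 genes for the related ligands and receptors of the KIT class (CSF1, IL34, CSF1R, FLT3LG and FLT3), 2 were tested and edgeR called 0. At an unadjusted p under 0.05 there was 1 (CSF1, named after its values were seen), and DESeq2 and limma voom called 0. In 6 of the 15 alternatives the list had 1 call: with upper quartile factors, with no filter, with a minimum mean of 50 counts, with the replicate block, without empty-vector replicate 3 and without ADRA2A replicate 4. CSF1, the macrophage growth factor gene, had 36.5 ± 3.38 and 32.4 ± 1.94 CPM (SD, n = 4 each, adjusted p = 0.0555 by edgeR).

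Enzymes that process these ligands moved in both directions. Of 13 listed genes 11 were tested, with 4 higher and 3 lower (63.6% called, beside 42.7% of all genes) and a median log2 fold change of 0.05. PCSK6 encodes a proprotein convertase and rose from 6.70 ± 0.642 to 24.6 ± 1.76 CPM (SD, n = 4 in each group), with 5.89 to 7.33 CPM in the empty-vector and 22.6 to 26.1 CPM in the ADRA2A libraries (log2 fold change 1.88, SE 0.09, adjusted p = 3.31e-12 by edgeR). CCBE1, which helps the protease ADAMTS3 to activate VEGFC, fell from 164 ± 6.69 to 81.1 ± 2.28 CPM (SD, n = 4 each), with 159 to 174 CPM against 78.8 to 83.3 CPM. CCBE1 thus had a log2 fold change of -1.02 (SE 0.04, adjusted p = 2.33e-13 by edgeR). ADAM17, a sheddase that cuts membrane-bound KIT ligand, rose from 63.9 ± 2.94 to 74.5 ± 2.54 CPM (log2 fold change 0.22, SE 0.05, adjusted p = 0.000675 by edgeR).

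The remaining processing enzymes described here were picked after their values were seen, for the member each one cuts. ADAMTS3, the protease of VEGFC, fell from 13.4 ± 0.305 to 9.21 ± 0.562 CPM (SD, n = 4 each, adjusted p = 5.44e-05 by edgeR). PLAT, tissue plasminogen activator, cuts PDGFC and rose from 256 ± 27.0 to 379 ± 11.5 CPM (adjusted p = 4.52e-08 by edgeR). For PDGFD, ST14 (matriptase) fell from 275 ± 2.22 to 254 ± 4.05 CPM (adjusted p = 0.00612 by edgeR), and PLAU (urokinase) had 1185 ± 44.5 and 1157 ± 56.4 CPM (adjusted p = 0.471 by edgeR). Among the proprotein convertases that cut the VEGFC precursor, PCSK5 rose from 7.47 ± 0.554 to 14.9 ± 0.461 CPM (log2 fold change 0.99, SE 0.09, adjusted p = 4.19e-08 by edgeR). In the same group PCSK7 had 43.0 ± 1.52 and 43.7 ± 1.23 CPM (adjusted p = 0.762 by edgeR), and FURIN had 149 ± 3.55 and 154 ± 4.24 CPM (adjusted p = 0.274 by edgeR). MMP9 and MMP2, also listed, had too few counts to be tested. MMP9 had 5 to 10 counts in the empty-vector and 0 to 5 in the ADRA2A libraries, and MMP2 had 0 to 5 in a library.

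Of 24 listed genes that carry signals from these receptors 23 were tested, with 7 higher and 4 lower (47.8% called, near the 42.7% of all genes) and a median log2 fold change of 0.06. FYN, a SRC family kinase gene, fell from 10.6 ± 1.25 to 5.83 ± 0.943 CPM (SD, n = 4 each; log2 fold change -0.85, SE 0.13, adjusted p = 2.11e-05 by edgeR). GAB2, a docking adaptor of KIT signalling, fell from 6.55 ± 0.823 to 4.68 ± 0.423 CPM (log2 fold change -0.49, SE 0.14, adjusted p = 0.00783 by edgeR). The other 2 called lower were CBL, a ubiquitin ligase that ends receptor signalling, and PLCG1. Those called higher included STAT3 (log2 fold change 0.30) and the adaptor gene SHC1 (0.32). These 4 genes were named after their values were seen.

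VEGFA is induced when oxygen is low, so the genes that sense oxygen and other targets of the same factors were listed beside it. Of the 8 sensing genes all were tested and 3 were called, each of them lower. This share, 37.5%, was below the 42.7% of all genes called in either direction and above the 21.1% called lower. The 8 genes had a median log2 fold change of -0.06. EPAS1, an alpha subunit of the hypoxia-inducible factors, fell from 118 ± 6.21 to 89.0 ± 2.38 CPM (SD, n = 4 each), with 113 to 126 CPM against 87.2 to 92.4 CPM (log2 fold change -0.41, SE 0.04, adjusted p = 2.62e-07 by edgeR). EGLN2, an oxygen-dependent prolyl hydroxylase gene, fell from 59.6 ± 3.53 to 47.9 ± 2.96 CPM (log2 fold change -0.31, SE 0.06, adjusted p = 0.000135 by edgeR). HIF1A, the other main alpha subunit, had 786 ± 9.61 and 747 ± 17.5 CPM (log2 fold change -0.07, SE 0.03, adjusted p = 0.0468 by edgeR). That call did not hold in 7 of the 15 alternatives, where the adjusted p reached 0.123, and over all 15 it lay between 0.0163 and 0.123.

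Of 11 other hypoxia targets, all tested, 5 were called, each of them lower, and 6 were not called. This share, 45.5%, was near the 42.7% of all genes called in either direction and above the 21.1% called lower. The 11 targets had a median log2 fold change of -0.19. BNIP3, a mitophagy receptor gene, fell from 160 ± 11 to 104 ± 7.38 CPM (SD, n = 4 each), with 147 to 174 CPM against 95.5 to 111 CPM (log2 fold change -0.62, SE 0.05, adjusted p = 1.27e-08 by edgeR). ANKRD37 fell from 2.41 ± 0.207 to 1.48 ± 0.316 CPM (log2 fold change -0.69, SE 0.23, adjusted p = 0.0221 by edgeR), which was not called without ADRA2A replicate 1 (0.0554), without ADRA2A replicate 4 (0.0621) or without empty-vector replicate 1 (0.0506), over a range of 0.0121 to 0.0621. The glycolytic genes PGK1 and LDHA and the kinase gene PDK1 were the other 3 called, and are named after their values were seen. Without ADRA2A replicate 1 or without ADRA2A replicate 4 the count of this list was 3. SLC2A1, a glucose transporter gene named after its value was seen, had 541 ± 29.5 and 557 ± 16.6 CPM (adjusted p = 0.404 by edgeR).

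**Figure D4:**
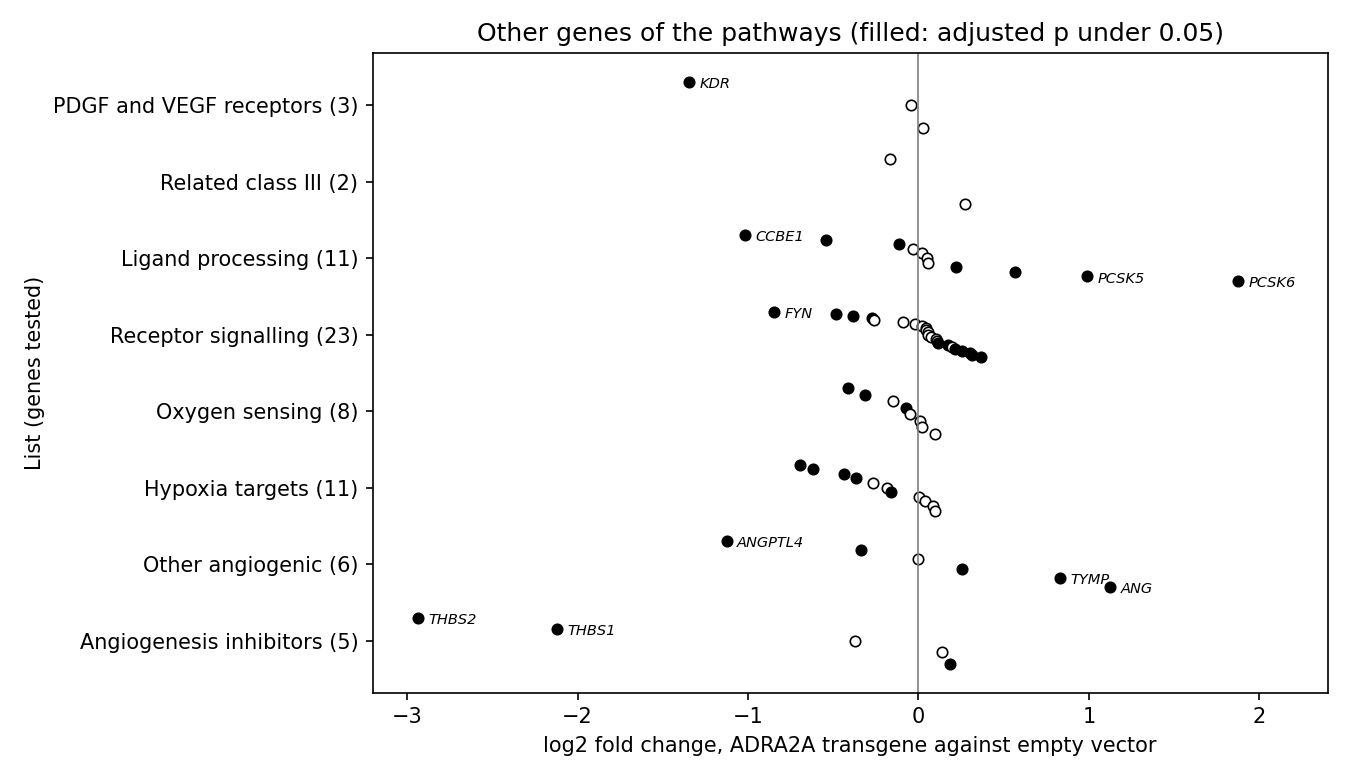
Each point is a gene of the 8 pathway lists that was tested, placed by its log2 fold change (ADRA2A transgene against empty vector), and filled points have an adjusted p under 0.05. THBS2, THBS1, KDR, ANGPTL4 and CCBE1 lie farthest to the left and PCSK6, ANG and PCSK5 farthest to the right. Most of the receptor signalling and oxygen sensing genes lie close to 0.

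Other angiogenic factors also went both ways. Of 10 listed 6 were tested, with 3 higher and 2 lower (83.3% called, beside 42.7% of all genes) and a median log2 fold change of 0.13. ANG encodes angiogenin and rose from 1.82 ± 0.578 to 3.95 ± 0.444 CPM (n = 4 in each group, SD; log2 fold change 1.13, SE 0.22, adjusted p = 0.000399 by edgeR). ANGPTL4, a lipase inhibitor gene induced by fasting and hypoxia, had 3 to 25 counts in a library and a log2 fold change of -1.12 (SE 0.37, adjusted p = 0.0203 by edgeR). It was not called without empty-vector replicate 2 (0.0752) or ADRA2A replicate 4 (0.0754), over a range of 0.00885 to 0.0754, and with the filter at a mean of 50 counts this list had 3 calls. Of 8 angiogenesis inhibitors 5 were tested, with 2 lower and 1 higher (60.0% called, beside the same 42.7%) and a median log2 fold change of -0.37. The 2 lower were the thrombospondin genes THBS1 (from 1119 ± 52.1 to 257 ± 8.46 CPM, SD, n = 4 each; log2 fold change -2.12, SE 0.04, adjusted p = 4.92e-19 by edgeR) and THBS2 (log2 fold change -2.93, SE 0.11, adjusted p = 1.04e-13 by edgeR). COL18A1, which encodes the precursor of endostatin, was the 1 higher, named after its value was seen (log2 fold change 0.18). Over the 8 lists, 35 of 69 genes tested were called (50.7%), beside 42.7% of all genes. The lists too were written with earlier results of these data known, so their shares are descriptions.

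Each ligand was also set beside its neighbours on the chromosome, the 20 tested genes on each side. Around KITLG, 12 of 40 neighbours were called higher and 7 lower, and their median log2 fold change was 0.05. The adjoining tested genes, TMTC3 and DUSP6, had 0.06 and 0.20. Within 10 genes on each side the median was 0.18, with 9 of 20 called higher and 1 lower. The neighbours of PDGFD had a median of -0.07 (8 called higher, 9 lower), and those of PGF -0.02 (9 higher, 7 lower). Around VEGFA the median was -0.04 (8 higher, 12 lower), around PDGFB -0.10 (7 higher, 14 lower) and around VEGFC -0.11 (2 higher, 14 lower). Around KIT 4 of 40 neighbours were called higher and 20 lower, with a median of -0.18. Of all genes tested 21.6% were called higher and 21.1% lower. The share of neighbours called lower was 17.5% around KITLG and PGF, 22.5% around PDGFD, 25.0% to 35.0% around the other ligand genes and 50% around KIT, and the share called higher was 30.0% around KITLG. The part of such shifts in the members' differences was not tested.

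**Figure D5:**
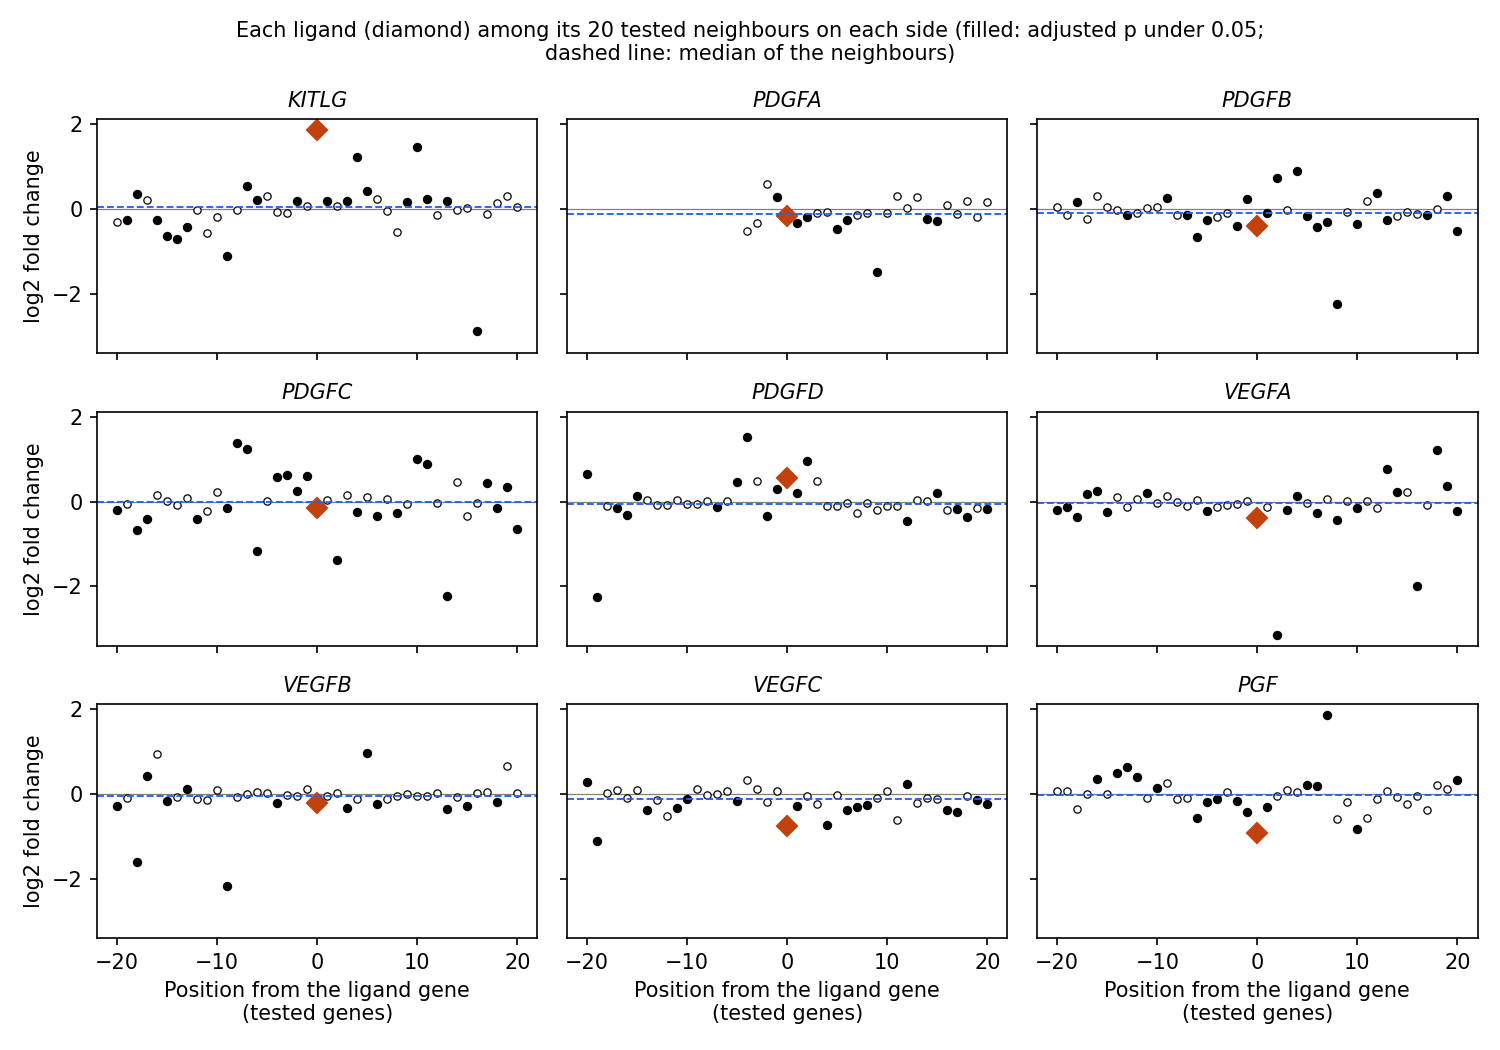
In each panel the diamond is a ligand gene and the circles are its tested neighbours by position in tested genes from it (at most 20 on each side; PDGFA is near a chromosome end and has 24), with the log2 fold change on the y axis, filled where the adjusted p is under 0.05 and with the median dashed. The diamond of KITLG lies above all of its neighbours, and the dashed lines lie near 0.

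The genes whose profile was most like that of KITLG were found by the root mean square difference of log2 CPM over the 8 libraries, each gene centred on its own mean, among 10159 other genes with a mean of at least 10 CPM. The 5 nearest were SERPING1 (0.10), which encodes the complement inhibitor of C1, SLPI (0.14), which encodes a secreted protease inhibitor, FOS (0.15), an immediate early transcription factor gene, HABP2 (0.15), which encodes a plasma serine protease, and SLC14A1 (0.16), a urea transporter gene. SERPING1 had 9.14, 8.35, 7.49 and 9.23 CPM with the empty vector and 33.6, 31.6, 28.1 and 32.3 CPM with ADRA2A. With 2 groups that stand apart, this measure is governed by the difference between them, so the 5 genes are those with a difference of the same size as KITLG and little spread.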

How the data were processed

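The authors deposited gene-level estimated counts from RSEM in 1 table, with 1 column for each of the 8 samples and no scaling between samples; 4.61% to 4.90% of the entries of a sample had decimals. The submitters' processing notes list cutadapt, STAR, RSEM and DESeq2 and the build hg38, with no versions; the annotation release and the use of strand are not given in the sources used here. All 8 columns were matched to samples by the name in brackets in the title. Genes on opposite strands overlap KITLG, PDGFB, PDGFC, PDGFD, VEGFA and VEGFC in GENCODE release 44 (GRCh38), and none of them was tested. Positions and exon lengths come from that release (99.4% of the genes matched).

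Counts were rounded. Genes were kept by filterByExpr (14785 of 58870), scaled by TMM and tested with edgeR 4.0.16 (glmQLFit, glmQLFTest; R 4.3.3) on all 8 libraries, with no covariate beside the group. P-values were adjusted by the Benjamini-Hochberg procedure across the 14785 genes, and a standard error is the log2 fold change over the square root of F. The code was tested on simulated data. Library totals of 14427035 to 17528915 counts limit precision for genes of a few counts. No 2 libraries of a group agreed within sampling noise (mean chi-square per gene 2.12 to 4.59, where 1 would be sampling noise alone).

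The members and lists were chosen with earlier results of these data known, and the lists were written from memory: 8 pathway lists (87 genes) and 5 marker lists (41 genes). Named were the members, the 2 called genes of each pathway list with the largest change, 10 genes whatever their result, ADRA2A and the 5 genes most like KITLG; others are said to be picked after their values were seen. Alternatives were RLE and upper quartile factors, DESeq2 1.42.0, limma 3.58.1 (voom), a block for the replicate number, leaving out each library, no filter on low counts, a minimum mean of 50 counts, the longest transcript as length and 10 neighbours on each side. A planned comparison of protein sequences was not run.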

Additional observations from a re-analysis of the deposited data

Results flagged for a closer look

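Within groups of 4 libraries, a sample was flagged when its gap to the nearest other library took most of the range of its group (a ratio above the 95% critical value of Dixon's test). Among 70 groups of named genes 4 were flagged, and chance flags about 1 in 20 groups. VEGFA in ADRA2A replicate 1 stood at 196 CPM, with the other 3 libraries of that group at 208 to 209 CPM. PGF in ADRA2A replicate 4 stood at 5.82 CPM, with the others at 7.50 to 7.68 CPM. In both genes the library lay farther from the empty-vector group than its companions did. ANKRD37 in empty-vector replicate 4 stood at 2.09 CPM, with the others at 2.50 to 2.52 CPM. FLT1 in empty-vector replicate 2 stood at 0.0679 CPM, which is its 1 count, with the others at 0.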

How the results depend on the processing

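Over 15 alternatives (7 other settings and 8 fits that each left out 1 library), the log2 fold change of KITLG lay between 1.81 and 1.92. The count of members other than KITLG that were called was 7 and lay between 6 and 7, and the count of pathway genes called was 35 and lay between 31 and 37. Of 119 refits of those members 117 kept the direction and the side of the threshold, and 2, both of VEGFC, kept the direction and lost the call; with the filter at a mean of 50 counts VEGFC was not tested. Over all 31 named genes with a test, 446 of 460 refits kept both, 14 lost the call (VEGFC, ANKRD37, ANGPTL4 and HIF1A) and 0 reversed. The number of genes called over the transcriptome was 6314 and lay between 5703 and 6550. Upper quartile factors moved the share of higher calls from 50.6% to 46.4%. With the longest transcript as the length, 5 members changed place in the order of levels; the cause is the length alone, since counts were the same. With 10 neighbours on each side, the median around KITLG was 0.18 in place of 0.05, and that around PDGFC was 0.09 in place of -0.01. The replicate numbers did not pair the libraries: deviations of same-numbered libraries correlated at -0.02, -0.04, 0.07 and -0.02. With the number as a block, 6400 genes were called and the count of members stayed at 7. VEGFC, KDR, ANGPTL4 and ANKRD37 rest on few counts, and KIT, FLT1, FLT4, PDGFRA and PDGFRB had too few to be tested.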
